A study of Sus scrofa with 22 samples.

Results

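miR-26a is a microRNA, an RNA of about 22 nucleotides that guides Argonaute proteins to messenger RNAs. Its sequences were taken as every row whose miRNA name read miR-26a once the species prefixes and the NA marks were removed. This gave 291 of the 8489 sequences in the 3 count tables, and 1 of 250 miRNA names. The tables held 186 of them for Hampshire, 261 for Pietrain and 235 for Large White, and 171 were in all 3. No other name began with miR-26.

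The 22 small RNA libraries came from subcutaneous fat of female pigs aged 6 months, with tissue kept in RNAlater after slaughter. Within each of 3 breeds the labels divide the animals into a class with thick and a class with thin subcutaneous fat. Hampshire had 5 thick and 2 thin libraries, Pietrain 4 thick and 3 thin, and Large White 4 thick and 4 thin. Nothing in the labels says that a library is a separate animal, so the p-values measure the spread between libraries. Each breed has its own count table, and whether breeds were also separate library batches is not stated. A breed difference and a batch difference cannot be told apart here.

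The guide function of a microRNA rests mainly on its seed, bases 2 to 8, which pair with sites in target messenger RNAs. miR-26a is known in human and mouse for repressing EZH2, a histone methyltransferase. In human fat cell precursors it is known to favour differentiation, whereas mice that lack the miR-26 family gain fat. Mature miRNAs also occur as isomiRs, which differ from the main sequence by shortened ends, added bases or changed bases. In human cells the enzyme TUT4 adds uridines to the 3′ end of miR-26a, which weakens repression of its target interleukin 6. In the RefSeq gene table for pig (Sscrofa11.1), the 1 miR-26 gene, MIR26A, lies within the span of CTDSP2, which encodes a phosphatase.

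The sequences below carry the comparisons that follow: the main sequence, its common 3′ end forms, the base changes whose level differed between groups, and the most common changes at position 1 and in the seed, for comparison. Positions are counted from 1 at the 5′ end, and a change is written with the base of the main sequence first. Capitals mark the seed in the first line and the changed or added bases in the others. The most abundant sequence of the files serves as the reference sequence, since a table of pig mature miRNAs and hairpins was not used here. For the same reason a base added past position 22 cannot be told apart from one copied from the gene.
miR-26a reference: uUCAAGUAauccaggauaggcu
last base C (U22C): uucaaguaauccaggauaggcC
last base A (U22A): uucaaguaauccaggauaggcA
last base G (U22G): uucaaguaauccaggauaggcG
1 base shorter: uucaaguaauccaggauaggc
1 uridine added: uucaaguaauccaggauaggcuU
2 uridines added: uucaaguaauccaggauaggcuUU
C11U with C21U: uucaaguaauUcaggauaggUu
U10C: uucaaguaaCccaggauaggcu
U1C: Cucaaguaauccaggauaggcu
U1G: Gucaaguaauccaggauaggcu
U1A: Aucaaguaauccaggauaggcu
U10G: uucaaguaaGccaggauaggcu
start 1 base later: ucaaguaauccaggauaggcu
A8G in the seed: uucaaguGauccaggauaggcu

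The reference sequence made up 62.7% ± 2.25 of all miR-26a reads (SD, n = 22). U22C followed with 10.1% ± 0.698, U22A with 6.67% ± 0.647 and C11U with C21U with 4.08% ± 1.30 (SD, n = 22 each). The sequence with 1 added uridine held 1.95% ± 0.506 and U22G held 1.82% ± 0.761 (SD, n = 22 each). The form that is 1 base shorter held 1.32% ± 0.301, U10C 0.861% ± 0.297 and the form with 2 added uridines 0.671% ± 0.254 (SD, n = 22 each). Of the 291 sequences, 66 were above 0 in all 22 libraries, and lengths ran over 18 to 25 nucleotides. Reads of 22 nucleotides made up 90.1% ± 1.88 of miR-26a (SD, n = 22).

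Library totals ran over 431542 to 3137757 reads, of which 24963 to 218530 were miR-26a. The widest 95% Wilson interval of a library's miR-26a share spanned 0.141 percentage points, and it covers counting error only. No library had a count of miR-26a sequences between 0 and 6, so a 0 may hide up to 5 reads. Fat tissue markers (miR-143-3p, miR-148a-3p and miR-26a itself) summed to 228442 to 570024 CPM, the counts scaled to a common library size. Endothelial markers summed to 31899 to 85947 CPM, red blood cell markers to 355 to 1937 CPM and leukocyte markers to 185 to 1370 CPM. Of 4 skeletal muscle markers 2 were in the tables, at 103 to 2248 CPM, and of 4 epithelial markers 2, at 0 to 445 CPM with a median of 0. Liver markers ranged over 0 to 26730 CPM, and miR-122, which defines liver cells, was highest in Hampshire thin replicate 1 (21393 CPM) and Hampshire thick replicate 3 (12565 CPM). In bulk tissue, fewer cells of a type and less of a miRNA per cell cannot be told apart.

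miR-26a was among the most abundant miRNAs of every library, with a rank of 2 to 8. It took 5.20% to 7.86% of the named reads, 6.49% ± 0.693 over all libraries (SD, n = 22). Its TMM-scaled level averaged 65490 ± 11831 CPM (SD, n = 22), the rank 3 among all names. miR-143-3p, which is known to promote fat cell differentiation, stood just above it at 94475 ± 46136 CPM, and miR-10b, encoded within a HOX gene cluster, just below at 61758 ± 9945 CPM (SD, n = 22 each). The highest library held 1.84 times the level of the lowest, a coefficient of variation of 18.1%. Among the 92 names above 0 in every library with a mean of at least 100 CPM, miR-26a was the rank 8 in steadiness, where the median coefficient of variation was 31.3%.

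In Hampshire thick fat miR-26a was at 62296, 59097, 61471, 91893 and 87506 CPM, and in Hampshire thin fat at 74959 and 70206 CPM. In Pietrain thick fat it was at 69058, 64160, 59671 and 70701 CPM, and in Pietrain thin fat at 61440, 69586 and 70128 CPM. In Large White thick fat it was at 87019, 51855, 50948 and 63966 CPM, and in Large White thin fat at 56645, 55852, 52511 and 49824 CPM. Thick and thin libraries overlapped in each breed, and 2 Hampshire thick libraries and 1 Large White thick library, at 87019 CPM and above, stood over all the others, at 74959 CPM and below. By group means the order ran from Hampshire thin (72583 ± 3360, n = 2), Hampshire thick (72453 ± 15864, n = 5) and Pietrain thin (67051 ± 4868, n = 3) to Pietrain thick (65897 ± 4995, n = 4), Large White thick (63447 ± 16798, n = 4) and Large White thin (53708 ± 3149, n = 4), in CPM with SD. Neighbours in this order differed by at most 0.580 of the larger of their SDs, so none differed beyond the wider of their spreads. The order depended on the TMM scaling. As a percent of named reads, Hampshire thin fat averaged 5.92%, beside Large White thin fat at 5.91%, and Pietrain thick fat was highest at 6.82%. In CPM, Large White thin fat had a narrower spread than Large White thick fat. Its highest library, at 56645 CPM, lay below the lowest Hampshire library (59097 CPM) and the lowest Pietrain library (59671 CPM). As a percent of named reads it overlapped both breeds. Large White thin fat then ran over 5.36% to 6.42%, and the lowest libraries were at 5.80% in Hampshire and 6.29% in Pietrain.

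**Figure D1:**
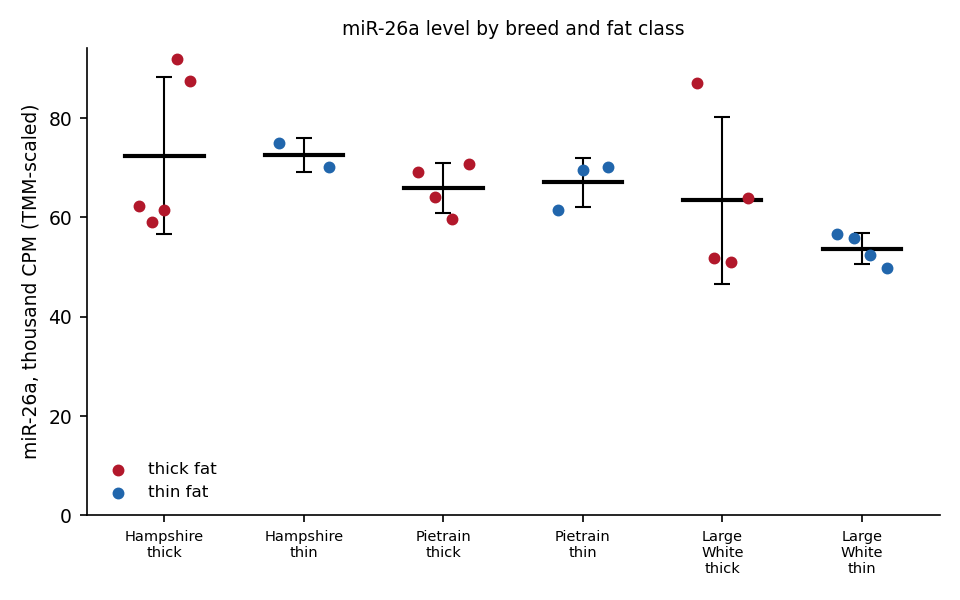
miR-26a level in each library (TMM-scaled CPM) by breed and fat class, thick left of thin; points are libraries, and bars the group mean with SD. Thick and thin fat overlap in each breed, and the 4 Large White thin libraries sit between 49824 and 56645 CPM.

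Whether miR-26a differed with fatness was the comparison the labels set up. miR-26a averaged 67665 ± 13311 CPM in thick fat (SD, n = 13) and 62350 ± 9103 CPM in thin fat (SD, n = 9). The thick over thin difference with breed as a term was 0.08 ± 0.10 on the log2 scale (SE; 95% interval -0.13 to 0.30), with an adjusted p of 0.997 by edgeR's quasi-likelihood test with Benjamini-Hochberg adjustment. In Pietrain it was -0.02 ± 0.11 (interval -0.29 to 0.25; edgeR adjusted p 0.993). Large White gave 0.24 ± 0.18 (interval -0.17 to 0.65; edgeR adjusted p 0.958) and Hampshire 0.02 ± 0.22 (interval -0.49 to 0.53; edgeR adjusted p 0.982). A test of the difference in fat effect between breeds gave an adjusted p of 1 by edgeR. Without Large White thick replicate 1 the Large White value was 0.06. Large White thick replicate 1 and thin replicate 1 stand in the other class's block of columns in the deposited table, and with these exchanged the Large White value was -0.0935 and that over all breeds -0.0614.

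These values stand against a background in which edgeR called 0 of 206 names (0%) in the fit with all libraries (5 at an unadjusted p under 0.05, 2 by DESeq2, 0 by limma-voom). In Pietrain edgeR called 0 of 161 names (4 unadjusted, 1 by DESeq2, 0 by limma-voom) and in Large White 0 of 170 (2 unadjusted, 0 by DESeq2 and by limma-voom). In Hampshire edgeR called 0 of 172 (5 unadjusted, 3 by DESeq2, 0 by limma-voom), and for the breed by fat test 0 of 206 (11 unadjusted, 2 by DESeq2, 0 by limma-voom). The standard error of miR-26a over all breeds ranked 7 of 206 from the smallest.

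In the authors' deposited table, the reference sequence of miR-26a had a log2 fold change of -0.07 in Hampshire, -0.07 in Pietrain and -0.00231 in Large White, in the table's direction of thin minus thick. For C11U with C21U the authors' deposited table had 0.08 in Hampshire, 0.22 in Pietrain and -0.20 in Large White, again thin minus thick. The header does not name this direction, which was read from the match of the Hampshire and Pietrain values with the labels. In Large White the edgeR fit by the labels gave C11U with C21U -0.10 ± 0.17 for thick over thin fat, opposite in sign to the deposited value once that is turned. Whether the deposited Large White comparison grouped thick replicate 1 and thin replicate 1 by the labels was not tested. The authors' deposited table held an adjusted p under 0.05 for 0 of 186 miR-26a sequences in Hampshire and 0 of 235 in Large White. In Pietrain the authors' deposited table had 4 of 183 with an adjusted p, and these were U1A, U1G, U1G with U22C, and U10G. Over all sequences with an adjusted p, the authors' deposited table called 1 of 5339 in Hampshire (0.0187%), 89 of 4699 in Pietrain (1.89%) and 0 of 6771 in Large White (0%; 91 at an unadjusted p under 0.05).

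Between breeds, the TMM-scaled summed level of miR-26a was highest on average in Hampshire, but no breed comparison passed edgeR's test. The breeds averaged 72490 ± 13025 CPM in Hampshire (n = 7), 66392 ± 4556 CPM in Pietrain (n = 7) and 58577 ± 12340 CPM in Large White (n = 8; SD). Hampshire over Large White was 0.31 ± 0.13 on the log2 scale (SE; interval 0.04 to 0.59), a fold of 1.24, with an unadjusted p of 0.0289 and an adjusted p of 0.0993 by edgeR. DESeq2 gave 0.34 with an adjusted p of 0.0252, which passed. Of 206 names, edgeR called 36 in this comparison (17.5%; 19 higher and 17 lower in Hampshire), without miR-26a, and DESeq2 called 57. Hampshire over Pietrain was 0.13 ± 0.14 (interval -0.16 to 0.41; edgeR adjusted p 0.543), with 39 of 206 names called (18.9%; 22 higher and 17 lower in Hampshire; 54 by DESeq2). Its sign turned with upper quartile scaling (-0.12), with library totals (-0.10) and without Hampshire thick replicate 4 (-0.0136). Pietrain over Large White was 0.19 ± 0.13 (interval -0.08 to 0.45; edgeR adjusted p 0.733). There edgeR called 0 names (0%), with 25 at an unadjusted p under 0.05, 7 called by DESeq2 and 0 by limma-voom. Without Large White thick replicate 1, Hampshire over Large White became 0.41 with an edgeR adjusted p of 0.0215, and without Hampshire thick replicate 4 it was 0.20 with 0.220. It was 0.11 with upper quartile scaling and 0.03 with library totals, and 0.26 with an edgeR adjusted p of 0.230 when the pair of libraries high in miR-122 was left out.

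**Figure D2:**
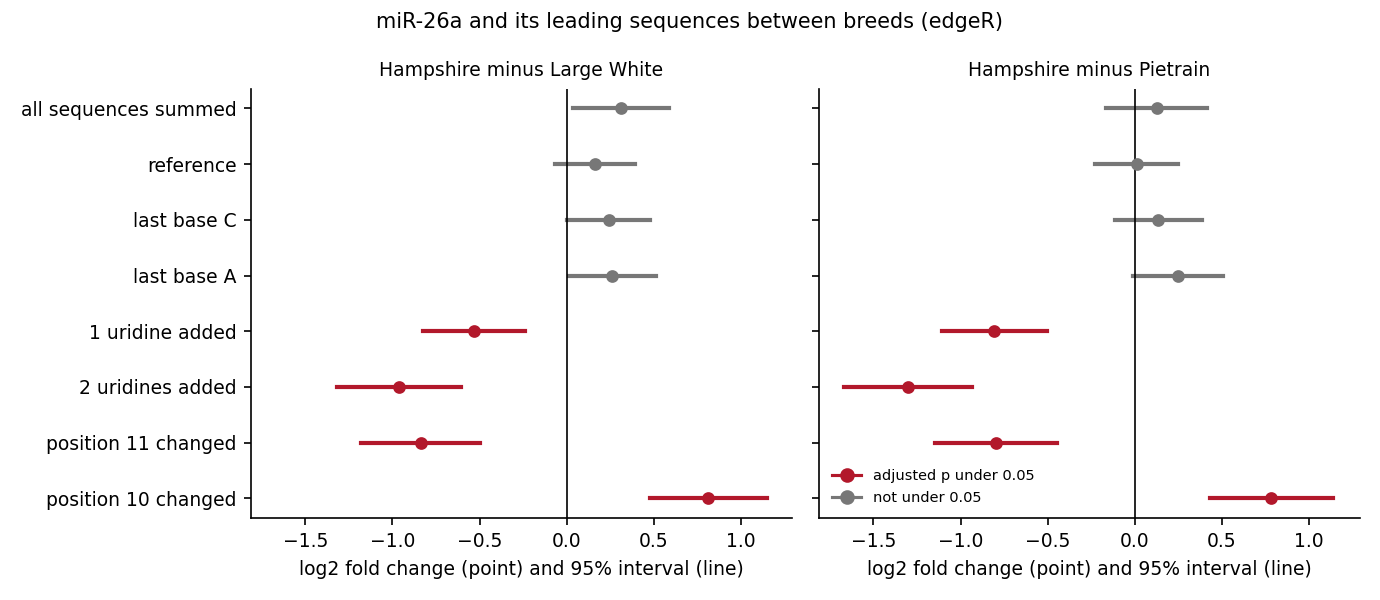
Log2 fold change between breeds (edgeR, points with 95% intervals) for the summed miR-26a and its leading sequences; red marks an adjusted p under 0.05. The summed level and the reference sequence are not red, whereas the uridine-tailed and C11U sequences lie below 0 and U10C above 0 in both Hampshire comparisons.

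The composition of miR-26a differed between breeds more clearly than its sum. Each sequence was put into 1 of 9 tested classes (or left unclassed) by its difference from the reference sequence, and the share of miR-26a reads in each class was compared. Hampshire fat had a smaller share of uridine-tailed reads than Pietrain and Large White fat. It had a larger share of adenine-tailed reads, most of which have the last base replaced. These shares do not depend on how libraries are scaled to each other.

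Uridine-tailed reads are those that end in 1 to 3 uridines not in the reference sequence, mostly the 1- and 2-uridine forms printed above. Their share was 1.90%, 1.93%, 1.85%, 2.29% and 2.04% in Hampshire thick fat and 1.99% and 2.75% in Hampshire thin fat. It was 3.33%, 3.80%, 4.29% and 3.91% in Pietrain thick fat and 4.04%, 3.43% and 3.86% in Pietrain thin fat. Large White thick fat held 3.28%, 3.69%, 3.73% and 2.92%, and Large White thin fat 3.77%, 3.48%, 4.18% and 2.82%. All 7 Hampshire libraries lay below all 15 others. The share averaged 2.11% ± 0.315 in Hampshire and 3.49% ± 0.456 in Large White, a difference of -1.30 percentage points within fat class (exact permutation test, 2-sided, p = 0.000529, adjusted p = 0.0032 over 36 tests). Against Pietrain, at 3.81% ± 0.334, the difference was -1.62 points (exact permutation p = 0.000794, adjusted p = 0.0032). Both p-values are the smallest these designs can give, and the comparisons share the Hampshire libraries.

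The adenine-tailed class consists mostly of U22A, in which the last base is replaced. It made up 7.96% ± 0.429 of miR-26a reads in Hampshire (range 7.62% to 8.85%, n = 7). Pietrain had 6.75% ± 0.471 (range 5.76% to 7.16%, n = 7) and Large White 7.21% ± 0.247 (range 6.82% to 7.54%, n = 8). Hampshire did not overlap either breed. The difference was 1.17 points over Pietrain (exact permutation p = 0.000794, adjusted p = 0.0032) and 0.746 points over Large White (exact permutation p = 0.0011, adjusted p = 0.0038). The Hampshire to Large White difference did not hold per reference read (exact permutation, adjusted p = 0.363), nor with C11U reads left out (0.470 points, adjusted p = 0.0794). Forms with an added adenine went the other way against Pietrain, when tested as single sequences. The reference with 1 adenine added was at -0.65 ± 0.16 on the log2 scale in Hampshire over Pietrain (edgeR adjusted p 0.0045). U22A with 1 adenine added was at -1.19 ± 0.36 (edgeR adjusted p 0.0229).

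**Figure D3:**
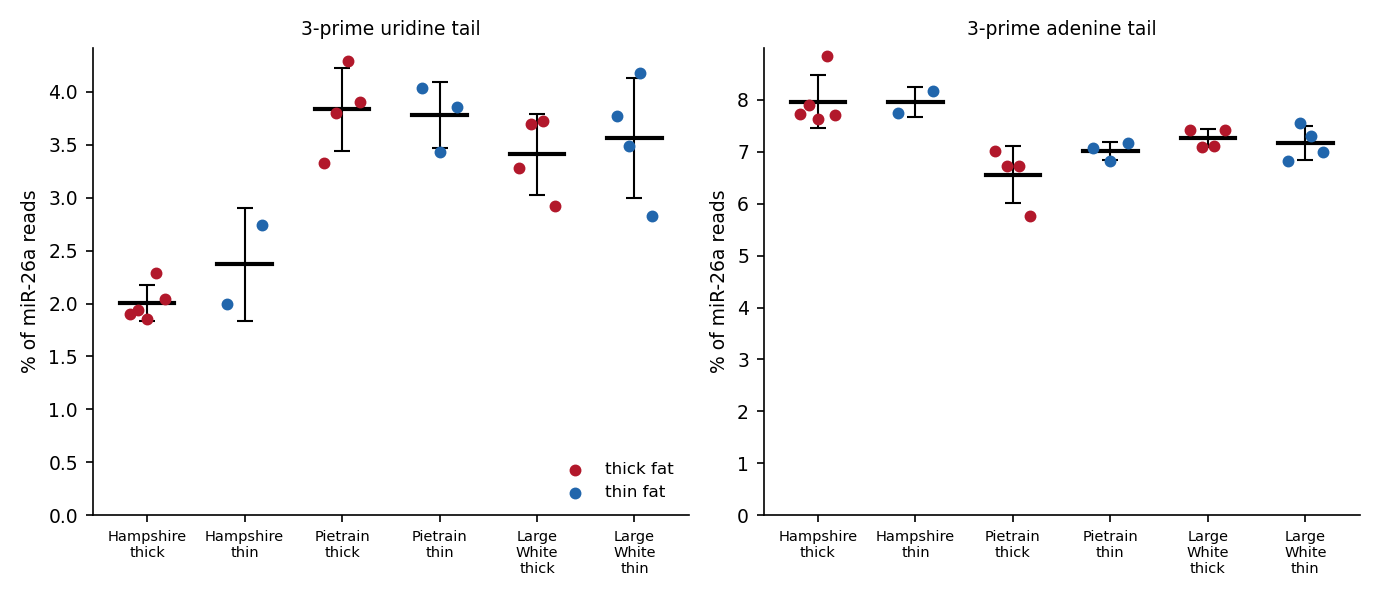
Percent of miR-26a reads with a uridine tail and with an adenine tail in each library by breed and fat class, thick left of thin; points are libraries, and bars the group mean with SD. Hampshire libraries sit at 1.85% to 2.75% for uridine and at 7.62% to 8.85% for adenine, apart from those of the other breeds.

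The reference sequence took 64.7% ± 2.14 in Hampshire, 62.3% ± 1.72 in Pietrain and 61.2% ± 1.48 in Large White (SD; n = 7, 7 and 8). Hampshire exceeded Large White by 3.23 points (exact permutation p = 0.0048, adjusted p = 0.0143), and by 0.694 points with an adjusted p of 0.617 once C11U reads were left out. Hampshire over Pietrain was 2.34 points (exact permutation, adjusted p = 0.124). Single-base changes past the seed were higher in Hampshire, at 3.13% ± 0.256, than in Pietrain at 2.67% ± 0.113 and in Large White at 2.71% ± 0.188. Their differences were 0.477 and 0.440 points (exact permutation, adjusted p = 0.0032 and 0.0069). Per reference read, neither held (adjusted p = 0.0652 and 0.115). The class of single-base changes past the seed includes C11U sequences too short to show C21U. Among the 20 most abundant names, the mean share of such changes was lower in Hampshire than in both others for 14 and higher for 4. Other 3′ tails were 1.08 points higher in Hampshire than in Pietrain (exact permutation, adjusted p = 0.0032; 0.225 per reference read). In all, 4 of the 9 classes passed in Hampshire over Large White, 6 in Hampshire over Pietrain, and 2 in Pietrain over Large White. For thick over thin fat over all breeds the exact permutation test called 0 of 9, with 1 at an unadjusted p under 0.05, the change past the seed (-0.179 points, p = 0.0382, adjusted p = 0.0983).

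By length, reads of 23 nucleotides made up 2.40% ± 0.318 in Hampshire, 3.99% ± 0.276 in Pietrain and 3.73% ± 0.528 in Large White. Reads of 24 nucleotides made up 0.780%, 1.50% and 1.31% in the same order of breeds. Mean length was nearly the same, at 21.97 nucleotides in Hampshire, 22.0 in Pietrain and 21.99 in Large White, as reads of 21 nucleotides were also fewer in Hampshire (2.88%, against 4.27% in Pietrain and 4.24% in Large White).

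Tails were also compared across the 20 most abundant names, as a description. The mean share of uridine-tailed reads was lower in Hampshire than in both other breeds for 13 of the 20 names. The median over names was 4.69% in Hampshire, 5.72% in Pietrain and 5.52% in Large White. The adenine-tailed share was higher in Hampshire than in both others for 15 of the 20, with medians of 6.90% in Hampshire, 6.23% in Pietrain and 6.63% in Large White. Among these names miR-26a had the rank 16 for its uridine tails and the rank 1 for the share of reads with a changed last base, 18.6% against a median of 10.6%.

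**Figure D4:**
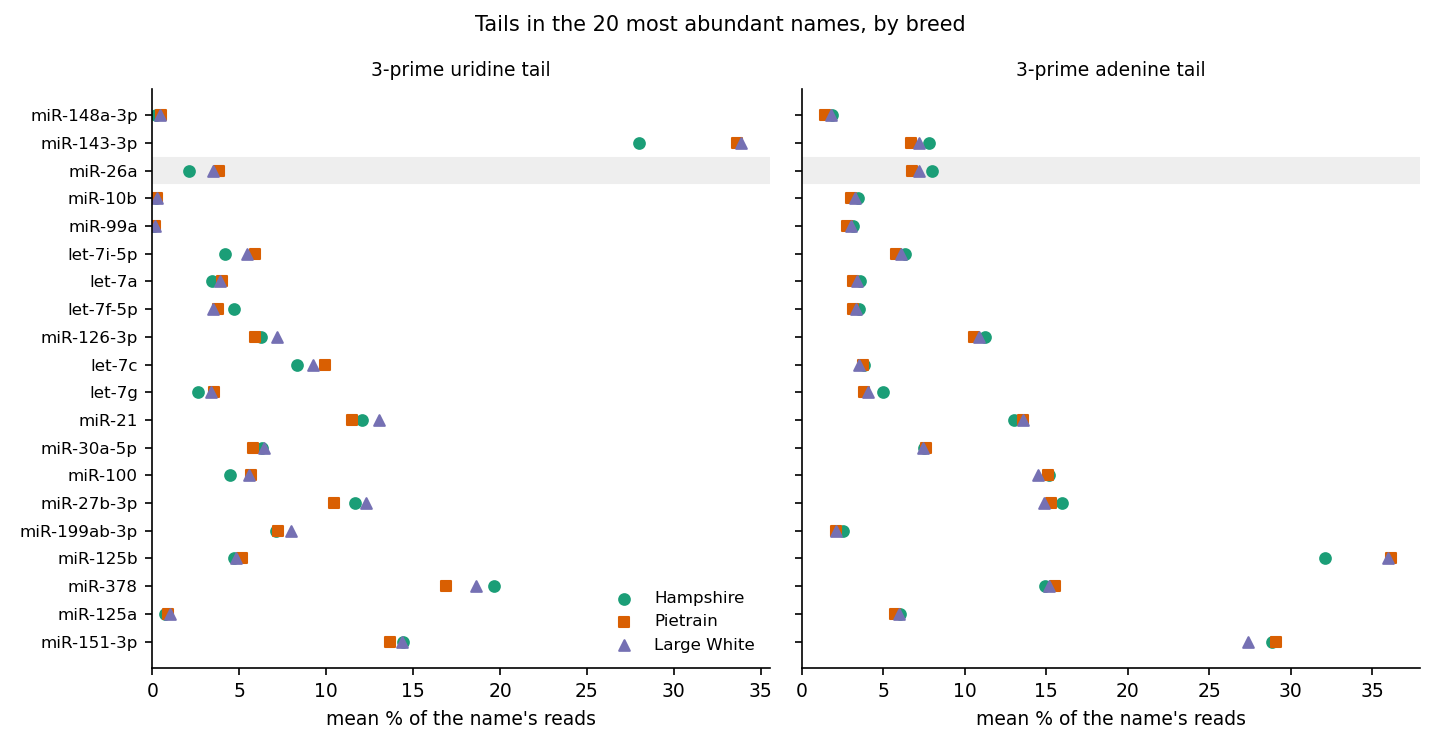
Mean percent of each name's reads with a uridine tail (left) and an adenine tail (right) for the 20 most abundant names, 1 symbol per breed; miR-26a is shaded. The Hampshire symbol is lowest for uridine in 13 of 20 names and highest for adenine in 15 of 20.

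Each sequence was also tested on its own among all sequences of the tables, a fit added after the data had been seen. In Hampshire over Large White, edgeR called 637 of 4054 sequences (15.7%), 158 higher and 479 lower in Hampshire. Of the 159 miR-26a sequences tested it called 20, of which 5 were higher and 15 lower in Hampshire. In Hampshire over Pietrain it called 827 (20.4%), 223 higher and 604 lower in Hampshire. Of miR-26a sequences it called 38 of 159, 9 higher and 29 lower. In Pietrain over Large White it called 110 (2.71%), all higher in Pietrain, and 7 of 159 for miR-26a, also all higher. The miR-26a shares and directions lie near these backgrounds. The comparisons with Hampshire share its libraries. Without Hampshire thin replicate 1 or 2 the Large White count fell to 9, and the Pietrain count to 22 and 21. Without Large White thin replicate 1 or 3 the Large White count was 12 and 10.

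Most of the called sequences fell into a few kinds. The reference sequence was not called, at 0.16 ± 0.11 on the log2 scale in Hampshire over Large White (SE; edgeR adjusted p 0.383) and 0.01 ± 0.12 in Hampshire over Pietrain (edgeR adjusted p 0.989). U22C and U22A were not called in either. The form that is 4 bases shorter was higher in Hampshire, at 0.86 ± 0.22 over Large White (edgeR adjusted p 0.0094) and 0.87 ± 0.23 over Pietrain (edgeR adjusted p 0.0085). Sequences with bases added past position 22 were called 6 times in Hampshire over Large White and 9 times in Hampshire over Pietrain, each time lower in Hampshire. Over all sequences most calls were also lower in Hampshire, 479 of 637 over Large White and 604 of 827 over Pietrain. The median log2 fold change of all sequences tested was -0.21 and -0.30. How many sequences of each kind were tested was not counted. The form with 2 added uridines was at -0.96 ± 0.17 over Large White (edgeR adjusted p 0.0004) and at -1.30 ± 0.18 over Pietrain on the log2 scale. The form with 1 was at -0.53 ± 0.14 (edgeR adjusted p 0.0123) and at -0.81 ± 0.15 (edgeR adjusted p 0.0004). Its call against Large White was lost without Hampshire thin replicate 1 (edgeR adjusted p 0.214), Hampshire thin replicate 2 (0.0503) or Large White thin replicate 3 (0.0530).

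A uridine in place of the cytosine at position 11 (C11U) marked 38 of the 291 sequences and 7.56% ± 2.14 of miR-26a reads (SD, n = 22). It held 3.41%, 6.02%, 3.99%, 5.52% and 6.34% in Hampshire thick fat and 6.16% and 5.08% in Hampshire thin fat. It held 6.34%, 8.17%, 7.46% and 7.94% in Pietrain thick fat and 7.12%, 9.77% and 9.71% in Pietrain thin fat. It held 6.95%, 11.7%, 8.24% and 7.61% in Large White thick fat and 11.2%, 9.22%, 9.40% and 8.89% in Large White thin fat. All Hampshire libraries lay below the libraries of the other breeds, the highest of them just under the lowest Pietrain library. As single sequences, 7 with C11U were called over Large White, all lower in Hampshire. Over Pietrain 7 were called, 6 lower and 1 higher in Hampshire. Most calls over all sequences were lower in Hampshire too. The most abundant C11U sequence was at -0.84 ± 0.17 in Hampshire over Large White (interval -1.18 to -0.49; edgeR adjusted p 0.0012) and at -0.80 ± 0.17 in Hampshire over Pietrain (edgeR adjusted p 0.0017). In Pietrain over Large White it was at -0.04 (edgeR adjusted p 1).

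The C11U change came with a second change. A uridine at position 21 stood in 93.2% ± 0.863 of the C11U reads of at least 21 nucleotides, and in 0.704% ± 0.147 of the other miR-26a reads of that length (SD, n = 22 each). miR-26b, the other member of the miR-26 family in mammals, shares its seed with miR-26a, and no row of the tables carries that name. Whether the C11U reads come from miR-26b was not tested. With the C11U reads left out, miR-26a was at 0.39 ± 0.11 on the log2 scale in Hampshire over Large White (interval 0.17 to 0.61; edgeR adjusted p 0.0138), which passed the threshold, and the C11U reads by themselves were at -0.42 ± 0.18. In Hampshire over Pietrain these were 0.20 (edgeR adjusted p 0.228) and -0.45 ± 0.18.

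U10C, a change at the neighbouring position, went the other way. It marked 20 sequences and 1.97%, 1.80%, 1.88%, 1.30% and 1.79% of miR-26a reads in Hampshire thick fat and 1.13% and 2.33% in Hampshire thin fat. Pietrain averaged 1.02% ± 0.169 (n = 7) and Large White 1.09% ± 0.224 (n = 8; SD), and the Hampshire range overlapped both. The U10C sequence was 0.81 ± 0.16 higher in Hampshire than in Large White on the log2 scale (edgeR adjusted p 0.0014), and 0.78 ± 0.17 higher than in Pietrain (edgeR adjusted p 0.0019). The call against Pietrain was lost without Hampshire thin replicate 2 (edgeR adjusted p 0.0651). In Pietrain over Large White the U10C sequence was at 0.03.

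**Figure D5:**
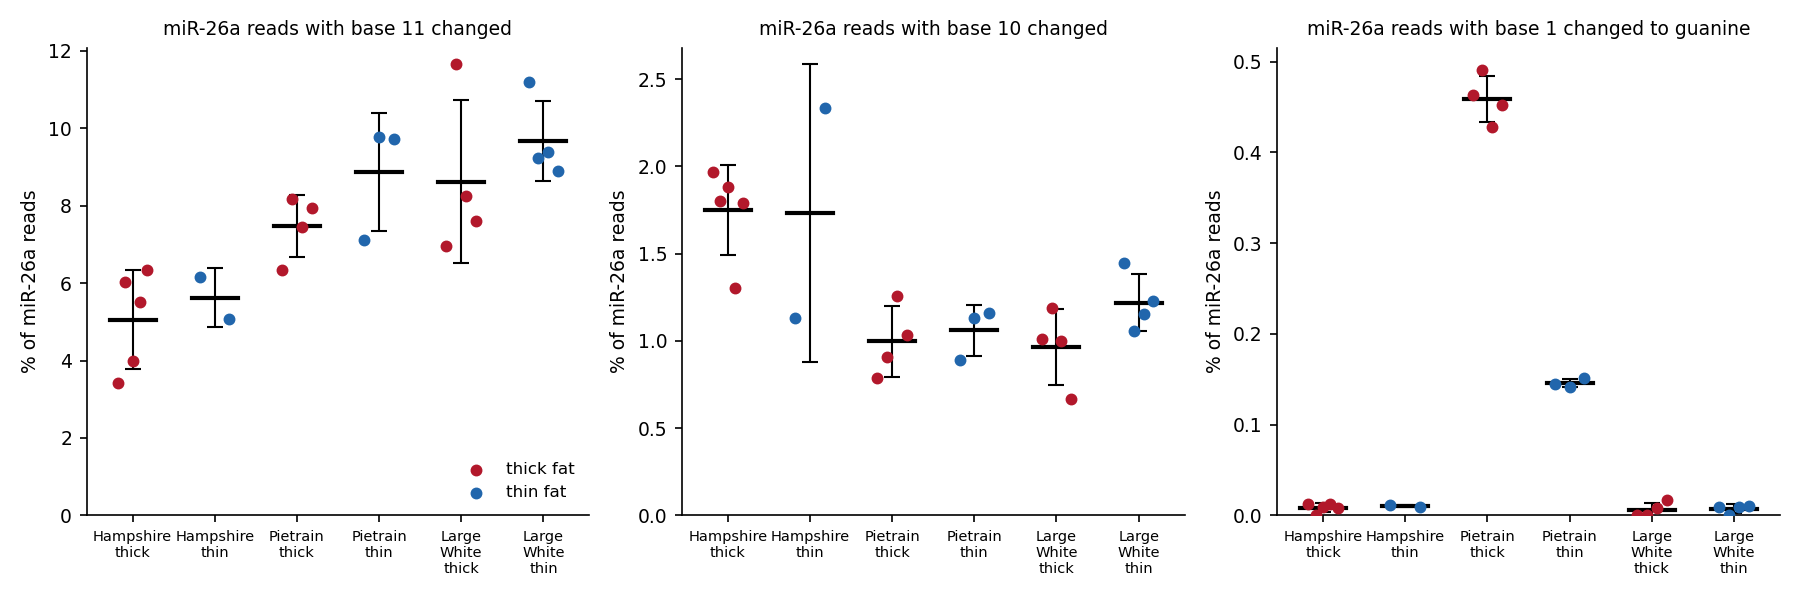
Percent of miR-26a reads with C11U, U10C and the first-base change U1G in each library by breed and fat class, thick left of thin; points are libraries, and bars the group mean with SD. C11U is lowest in Hampshire, U10C averages highest there, and U1G is near 0 outside Pietrain, where thick fat holds 0.428% to 0.491%.

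Changes of the first base, which lies outside the seed, set Pietrain apart, in other abundant names as in miR-26a. Over the 20 most abundant names the median share was 0.245% in Hampshire, 0.649% in Pietrain and 0.262% in Large White. It was lower in Hampshire than in Pietrain for 18 of the 20. Position 1 changes took 0.269% ± 0.0212 of miR-26a reads in Hampshire (n = 7), 0.652% ± 0.0978 in Pietrain (n = 7) and 0.265% ± 0.0242 in Large White (n = 8; SD). Pietrain exceeded Large White by 0.374 points, and Hampshire over Pietrain was -0.367 points (exact permutation, adjusted p = 0.0032 for each). Reads with a shifted 5′ start took 0.198% ± 0.0216 in Hampshire, 0.0916% ± 0.018 in Pietrain and 0.164% ± 0.0332 in Large White (SD), and so were fewest in Pietrain. Pietrain over Large White was -0.0722 points there and Hampshire over Pietrain 0.105 points (exact permutation, adjusted p = 0.0032 for each).

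Within Pietrain the first base also differed with fat class. U1G held 0.464%, 0.491%, 0.428% and 0.452% of miR-26a reads in Pietrain thick fat and 0.145%, 0.142% and 0.151% in Pietrain thin fat, without overlap. In the other 15 libraries it was at most 0.0166%. In Pietrain thick over thin fat edgeR called 65 of 3023 single sequences (2.15%), and 5 of 130 miR-26a sequences. U1G was at 1.67 ± 0.19 on the log2 scale (edgeR adjusted p 0.0078), U1G with U22C at 1.65 ± 0.22 (0.0093) and U1G with U22A at 1.46 ± 0.23 (0.0150). U1A was at -1.27 ± 0.20 (edgeR adjusted p 0.0150), with 0.05%, 0.0394%, 0.0439% and 0.0395% in Pietrain thick fat and 0.12%, 0.102% and 0.0925% in Pietrain thin fat. U10G was at -3.93 ± 0.63 (edgeR adjusted p 0.0152) on few reads, with counts of 6, 8, 0 and 0 in Pietrain thick fat and 30, 56 and 40 in Pietrain thin fat. Of these calls 2 were left without Pietrain thin replicate 1 and 0 without replicate 2 or 3, and U1G was then at an edgeR adjusted p of 0.0532 without replicate 2 and 0.0640 without replicate 3.

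A first base changed to G moved in the same libraries for other miRNAs. Among 19 other abundant names that do not begin with G, the median share of such reads was 0.314% to 0.394% in the Pietrain thick libraries and 0.118% to 0.123% in the Pietrain thin libraries, and at most 0.0144% in the others. It averaged higher in Pietrain thick than thin fat in 16 of the 19 names, and did not overlap in 13. The part of library preparation in the U1G values was not tested. In the other fat comparisons edgeR called 1 of 4054 single sequences over all breeds (0.0247%; 155 unadjusted), and 0 of the 159 of miR-26a. In Large White it called 0 of 3075 (35 unadjusted) and in Hampshire 0 of 2593 (117 unadjusted), no other tool being run on single sequences.

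Few listed reads had a changed seed, and how the authors' matching treats such changes is not given in the sources used here. Changes in the seed took 0.0524% ± 0.0098 of miR-26a reads in Hampshire, 0.0533% ± 0.006 in Pietrain and 0.0556% ± 0.0031 in Large White (SD; n = 7, 7 and 8). The 3 sequences of this class all had the change at position 8, the last base of the seed, and A8G led at 0.0527% of reads. Among 975 sequences with 1 change in the 20 most abundant names, 1 had it at positions 2 to 7. Past the seed, U10C (0.904%), C11U (0.585%), A16G (0.231%) and A13G (0.205%) were the most common changes counted as single, and U1C (0.226%) led at position 1. The C11U value includes sequences too short to show C21U, of which the most abundant, of 20 nucleotides, held 0.203% of reads. Whether these had a second change cannot be read from them. The C11U sequences that keep the C of the C21U position held 0.256% (1 base shorter) and 0.0974% (full length).

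U22G stood apart in 1 library. It held 4.98% of miR-26a reads in Large White thick replicate 1 and 1.37% to 2.38% in the other 21. In that library the median share of reads with the last base changed to G, over 16 abundant names, was 1.56%, against 0.346% to 0.799% elsewhere. This is also the library with the highest miR-26a level in Large White, and its part in the breed differences is given above with the values without it.

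The names whose level over the 22 libraries was most like that of miR-26a were miR-29a, miR-151-3p, miR-24-3p, miR-27a and miR-140-5p. Spearman's rho of log2 CPM was 0.69, 0.66, 0.66, 0.64 and 0.64 for them, and 0.50, 0.32, 0.61, 0.66 and 0.77 once group means were removed. The median over the 91 names compared was 0.046. The points share libraries and scaling, so these values are a description.

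miRNAs known to act on fat cell formation were counted as a list of promoters and a list of repressors. miR-26a itself is among the promoters tested and enters that list's counts and median. Of 19 promoters of adipogenesis, 15 were in the tables, and in each Hampshire comparison 1 rose, 3 fell and 11 did not pass (26.7% called, against 17.5% of all names over Large White and 18.9% over Pietrain). miR-148a-3p, which represses WNT1, rose by 0.85 ± 0.15 on the log2 scale in Hampshire over Large White (edgeR adjusted p 0.0007) and by 0.88 ± 0.16 over Pietrain (edgeR adjusted p 0.0005). miR-103, known for lowering insulin sensitivity in mice, was at -0.94 ± 0.18 over Large White (edgeR adjusted p 0.0008) and at -0.92 over Pietrain. miR-20a, of the miR-17-92 cluster, was at -0.75 and -1.40, and miR-17-5p of the same cluster at -0.68 and -1.14. The list's median log2 fold change was 0.14 over Large White and 0.02 over Pietrain, against -0.02 and -0.04 for all names.

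Of 15 repressors of adipogenesis, 13 were in the tables, and in each Hampshire comparison 1 rose, 3 fell and 9 did not pass. That is 30.8% called, against 17.5% of all names over Large White and 18.9% over Pietrain, on few members. miR-27a, which represses PPARG, rose by 1.01 over Large White and by 0.89 over Pietrain on the log2 scale (edgeR adjusted p 0.0002 and 0.0005). miR-365-3p was at -0.85 and -0.77, and let-7f-5p at -0.91 and -1.02. miR-145-5p averaged 1178 ± 1481 CPM in Hampshire, against 5652 ± 1439 CPM in Pietrain and 5082 ± 2341 CPM in Large White (SD). The list's median was -0.12 over Large White and -0.30 over Pietrain, against -0.02 and -0.04 for all names. No member of either list passed edgeR's test in Pietrain over Large White or in a fat comparison, and miR-26a passed in none.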

How the data were processed

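Small RNA libraries were made with the NEBNext kit and sequenced on a HiScan SQ, per the labels' protocols. Tools named in the submitters' processing notes are FastQC, bcl2fastq and DESeq2, with the build Sscrofa 10.2; the aligner and the miRNA annotation are not given in the sources used here. The authors deposited raw counts per sequence and miRNA name, 1 table per breed. The authors also deposited a comparison of fat classes per breed, with a base mean signal, a log2 fold change with its error, a test score, and p-values. Adapter ligation and trimming can change end bases, and no molecular identifiers were used.

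Counts were summed per stripped name over the 3 tables, with 0 where a sequence was not listed. Unnamed sequences (80, 0.0480% of reads) stayed out. edgeR 4.0.16 (R 4.3.3; TMM, filterByExpr with a minimum count of 10, robust quasi-likelihood) tested all names, calling names with a Benjamini-Hochberg adjusted p under 0.05. Breed contrasts weighted fat classes equally. DESeq2 1.42.0 and limma 3.58.1 were alternatives. A tail was called after at least 18 matching bases and was up to 3 bases long. Class shares were compared by exact 2-sided permutation within strata, adjusted over 36 tests. Replicates differed beyond sampling noise in all 32 pairs (lowest chi-square per degree of freedom 14.3). Scripts were tested on simulated data.

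Named items were miR-26a, names beginning miR-26, the 5 names most like it, its neighbours in level, the list members of smallest p, and the most abundant sequences overall and per class. Members and lists were chosen with earlier results of these data known.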

Additional observations from a re-analysis of the deposited data

Results flagged for a closer look

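In 60 groups of 4 or more libraries over 15 measures, 7 values, in 6 libraries, lay far from the rest of their group; chance gives about 1 in 20 groups. Pietrain thick replicate 4 had 2.87% of miR-26a reads with a shortened 3′ end, against 2.46% to 2.52% in its group. Hampshire thick replicate 4 had 8.85% in the adenine-tailed class, against 7.62% to 7.90%, and 1.30% with U10C, against 1.79% to 1.97%. Large White thin replicate 3 had 12.4% in the other tails, against 12.6% in each of the others. Large White thick replicate 4 had 0.113% with a shifted 5′ start, against 0.187% to 0.201%. Large White thick replicate 2 had 2.74% with a change past the seed, against 2.50% to 2.52%. Large White thin replicate 2 had 0% U1G, against 0.00942% to 0.0102%, values at which a count of 0 may hide up to 5 reads.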

How the results depend on the processing

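Scaling moved the breed differences of summed miR-26a. Hampshire over Large White passed the threshold with relative log expression scaling (0.34, edgeR adjusted p 0.0470), DESeq2 (0.34, adjusted p 0.0252), the reference sequence as the only count (0.30, edgeR 0.0443) and C11U reads left out (0.39, edgeR 0.0138), but was 0.11 with upper quartile scaling and 0.03 with library totals. Those scalings shifted the median of all names by -0.19 and -0.27, and relative to that median miR-26a was at 0.33 (TMM), 0.32 and 0.32. Leaving out each library gave 0.20 to 0.41. Hampshire over Pietrain reversed to -0.12 (upper quartile) and -0.10 (library totals), where it was 0.17 and 0.14 relative to the median, and ran over -0.0136 to 0.14 without single libraries. Pietrain over Large White ran over 0.14 to 0.28.

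The fat differences, which passed under no setting, changed sign. Over all breeds the value was -0.0614 and in Large White -0.0935 when 2 Large White libraries, which stand in the other fat class's block of columns, were exchanged. Without single libraries they ran over 0.01 to 0.11 and 0.06 to 0.34. Pietrain reversed to 0.0310 (upper quartile), 0.0188 (library totals) and 0.0476 (reference sequence only), and ran over -0.10 to 0.0193. Hampshire reversed to -0.17 (upper quartile), -0.00879 (without miR-148a-3p) and -0.00375 (limma-voom), and ran over -0.0622 to 0.0927. The breed by fat adjusted p ran over 0.334 to 1, and over 0.919 to 1 without single libraries. The cause was not tested.

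Of the classes that passed in Hampshire over Large White (4), 1 was left per reference read and 2 with C11U reads left out, and 4 to 5 without single libraries. Hampshire over Pietrain gave 4 to 6 under the other settings and 6 without single libraries. Pietrain over Large White gave 2 to 3, and thick over thin 0, or 1 without Hampshire thick replicate 5 or thin replicate 1. Single-sequence calls ran over 9 to 23, 21 to 40 and 5 to 8 in these breed comparisons, and 0 to 5 in Pietrain thick over thin. Of 553 settings for single classes and sequences, 540 kept direction and side, 12 lost the call and 1 reversed, the reference sequence in Hampshire over Pietrain with library totals (-0.0502). The 553 include settings that leave out or exchange libraries of a breed not compared. Such settings cannot change a class difference, so the 540 overstate how many could have differed. No paired analysis was possible because the labels carry no replicate numbers shared across groups.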
